A study of Mus musculus with 18 samples.

Results

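The libraries described here are 6 of the 18 in the series: 3 of fresh and 3 of primed natural killer (NK) cells in which Acly had been deleted. Spleens came from Acly fl/fl mice that carried Rosa YFP/YFP and a tamoxifen-inducible Cre, CRE-ERT2, placed under Ncr1, a gene of NK cells and related innate lymphocytes. The mice ate a tamoxifen diet for 48 hours, and cells positive for YFP, the mark of Cre activity, were sorted 5 days after the diet ended. Fresh knock-out cells were taken for RNA after sorting, and primed knock-out cells were first exposed to interleukin-15 (IL-15) at 100 ng/ml for 72 hours. Members of the comparison were chosen by the labels alone, and all 14864 genes kept by the expression filter were tested. The 6 matching wild-type libraries (3 fresh, 3 primed) carried Rosa YFP/YFP and the same Cre without the floxed gene, received the same diet, and enter only where the knock-out response is set against theirs. Cre and tamoxifen were therefore common to all 12. Nothing in the labels says that replicates are separate animals, so p-values here rest on the scatter among libraries, which may be technical in part. Primed cells differed from fresh ones in IL-15 and in 72 hours of culture, and no cultured library without IL-15 was analysed here, so cytokine and culture cannot be told apart.

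NK cells are innate lymphocytes that kill infected or transformed cells by releasing perforin and granzymes, and that secrete chemokines and interferon gamma. IL-15 signals through the shared IL-2 and IL-15 receptor beta and gamma chains, the kinases JAK1 and JAK3 and the transcription factor STAT5. It keeps NK cells alive and, at high dose, drives growth, division and the build-up of granzymes. Acly encodes ATP-citrate lyase, which cleaves citrate in the cytosol into oxaloacetate and acetyl-CoA, the building block of cholesterol and fatty acids and the donor for histone acetylation. Acss2 makes the same product from acetate.

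Acly, at chr11:100476353-100528000 on the minus strand of mm10, measured 16, 15.3 and 25.5 CPM (reads of a gene scaled to a common library total) in the 3 fresh knock-out libraries and 41.4, 38.1 and 48.9 CPM in the 3 primed ones. Every primed library lay above every fresh one, and all 6 lay far below the wild-type means of 250.3 CPM (fresh) and 256 CPM (primed). The rise within the knock-out had a log2 fold change of 1.17 (SE 0.20, adjusted p = 9.37e-05). Values are per gene, not per exon, so they do not show whether these reads came from intact or deleted copies.

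Fresh knock-out libraries held 20802274 to 33808849 reads and primed ones 14772350 to 23317307. Primed replicate 1 stood apart, with 14693 genes that had a read against at least 18185 in the other 5. Its correlations with the other primed libraries were 0.954 and 0.950 (Pearson's r of log2 CPM across genes), while those 2 shared 0.983 and the fresh pairs 0.985 to 0.988. Spread between replicates was wider in primed than in fresh knock-out cells, with a biological coefficient of variation of 0.367 against 0.142. Xist, the transcript of the inactive X chromosome, was at 0.181, 92.4 and 0.744 CPM in the fresh and 0, 55.5 and 0.144 CPM in the primed libraries. Replicate 2 was thus the Xist-positive library in both groups and did not share its source with the others. Whether those others came from separate animals is not known.

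Of 11 NK-cell markers, 9 fell and none was absent. Their summed level was 17030 to 18390 CPM in fresh and 9633 to 10930 CPM in primed knock-out libraries. Erythroid and platelet markers summed to 27.8 to 31.2 CPM in fresh and 0 to 1.83 CPM in primed libraries, where 10 of 13, the haemoglobin genes among them, were at 0. B-cell and plasma-cell markers summed to 276 to 318 CPM and then 86.1 to 107.6 CPM, nearly all of it Ighm, and Pax5 and Ms4a1 were at 0 after priming. The 16 markers of monocytes, macrophages and neutrophils summed to 18.2 to 21.5 and then 37.8 to 39.3 CPM. Nearly all of the primed sum was Cd68, a lysosomal gene, and Lyz2, Csf1r, C1qa and C1qb were at 0. In the same list 7 of the 8 tested members fell and Cd68 rose. T-cell markers summed to 415 to 500.0 CPM in fresh and 442 to 555 CPM in primed libraries, with Cd4 and Cd8b1 at 0 after priming. Most of that sum was Trbc1 and Trbc2, and of 8 tested members Trbc1 rose (log2 fold change 0.39) while Cd3d (-1.92), Cd3g (-1.45) and Bcl11b (-2.02) fell. The Trbc1 call was lost when fresh replicate 2, primed replicate 2 or primed replicate 3 of the knock-out was left out (edgeR, adjusted p = 0.0644, 0.0604 and 0.0728). The dendritic-cell sum (108 to 162, then 90.9 to 172 CPM) overlapped, but 5 of its 7 tested members fell, among them H2-Aa (-5.47), H2-Eb1 (-3.26), H2-Ab1 (-2.67) and Cd74 (-1.66). The 2 that rose were Xcr1 and Bst2, and Bst2 is also in the interferon-stimulated list. These members were named after their values were seen. Sums for other innate lymphocytes (317 to 412, then 259 to 386 CPM; 2 of 9 tested members rose and 1 fell) and for endothelium and stroma (62.9 to 85.3, then 52.3 to 64.1 CPM) overlapped between fresh and primed. Their part in the results was not tested. In bulk RNA, fewer cells of a type and less RNA per cell cannot be told apart.

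Priming was accompanied by a change in nearly every second gene. At an adjusted p below 0.05 (edgeR quasi-likelihood test, Benjamini-Hochberg adjustment over all 14864 genes), 3425 genes (23%) rose and 3813 (25.7%) fell, 48.7% in all. Among the called genes, 3829 (25.8% of all tested) changed at least 2-fold, 1976 up and 1853 down, and 575 rose and 312 fell 8-fold or more. The median log2 fold change over all genes was -0.06, with quartiles of -0.70 and 0.63. The 3 primed libraries lay above all 3 fresh ones for 3791 genes (25.5%) and below them for 4759 (32%). Without primed replicate 1, 6750 genes were called. These shares are the background against which the gene lists were read. Values given in parentheses after a gene are log2 fold changes of primed against fresh knock-out cells unless another quantity is named.

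The 10 largest rises were of genes with different known roles. Ahrr, the repressor of the aryl hydrocarbon receptor, had no read in any fresh knock-out library and 12.6, 13.6 and 14.9 CPM in the primed ones, which is at least 344-fold higher against a floor of 3 reads over the fresh group. Cd300lb, an activating receptor gene, also had no read when fresh and 4.16, 1.95 and 1.54 CPM when primed, at least 59.2-fold higher. Ccl1, which encodes a chemokine, went from 2 reads over the fresh group to 2146 over the primed group. That ratio of library shares was 1380 (exact 95% interval for counting error only, 382 to 11404). Spp1, the gene of the secreted phosphoprotein osteopontin, measured 6.44, 12.5 and 4.34 CPM in fresh and 1591, 1979 and 1906 CPM in primed libraries, a log2 fold change of 7.90. Asns, which encodes asparagine synthetase, was at or below 0.181 CPM in every fresh library and rose to 35.7, 29.0 and 34.5 CPM. Rises of similar size were seen for Fads2, a fatty acid desaturase gene (log2 fold change 8.58), Ifitm1, an antiviral membrane protein gene (8.03), Zbtb32, a zinc-finger repressor gene of proliferating NK cells (8.01), the receptor gene Gpr141 (7.96) and Nqo1, a quinone reductase gene (7.63). Genes were named only where fresh and primed libraries did not overlap.

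Haemoglobin genes had no read after priming, and Hba-a2 and Hbb-bs were at least 92.5-fold and 92.0-fold lower against a floor of 3 reads over the primed group. Members of the other-cell marker lists, these among them, were set aside in naming the 10 largest falls. Hes1, a Notch-responsive repressor gene, measured 21.9, 20.3 and 27.6 CPM in fresh and 0, 0.266 and 0.0962 CPM in primed knock-out libraries (log2 fold change -7.37). Tnfaip3, whose product A20 restrains NF-kappaB, fell from 427, 528 and 665 to 17.8, 12.5 and 18.8 CPM (-5.05). Zbtb10 (-4.96), Denn2b (-4.55), Fosb (-4.43), the phosphatase gene Dusp1 (-4.33), the nuclear receptor gene Nr4a1 (-4.29), the stress-recovery gene Ppp1r15a (-4.13), Arl5c (-4.09) and Fos (-4.08) completed these 10.

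**Figure D1:**
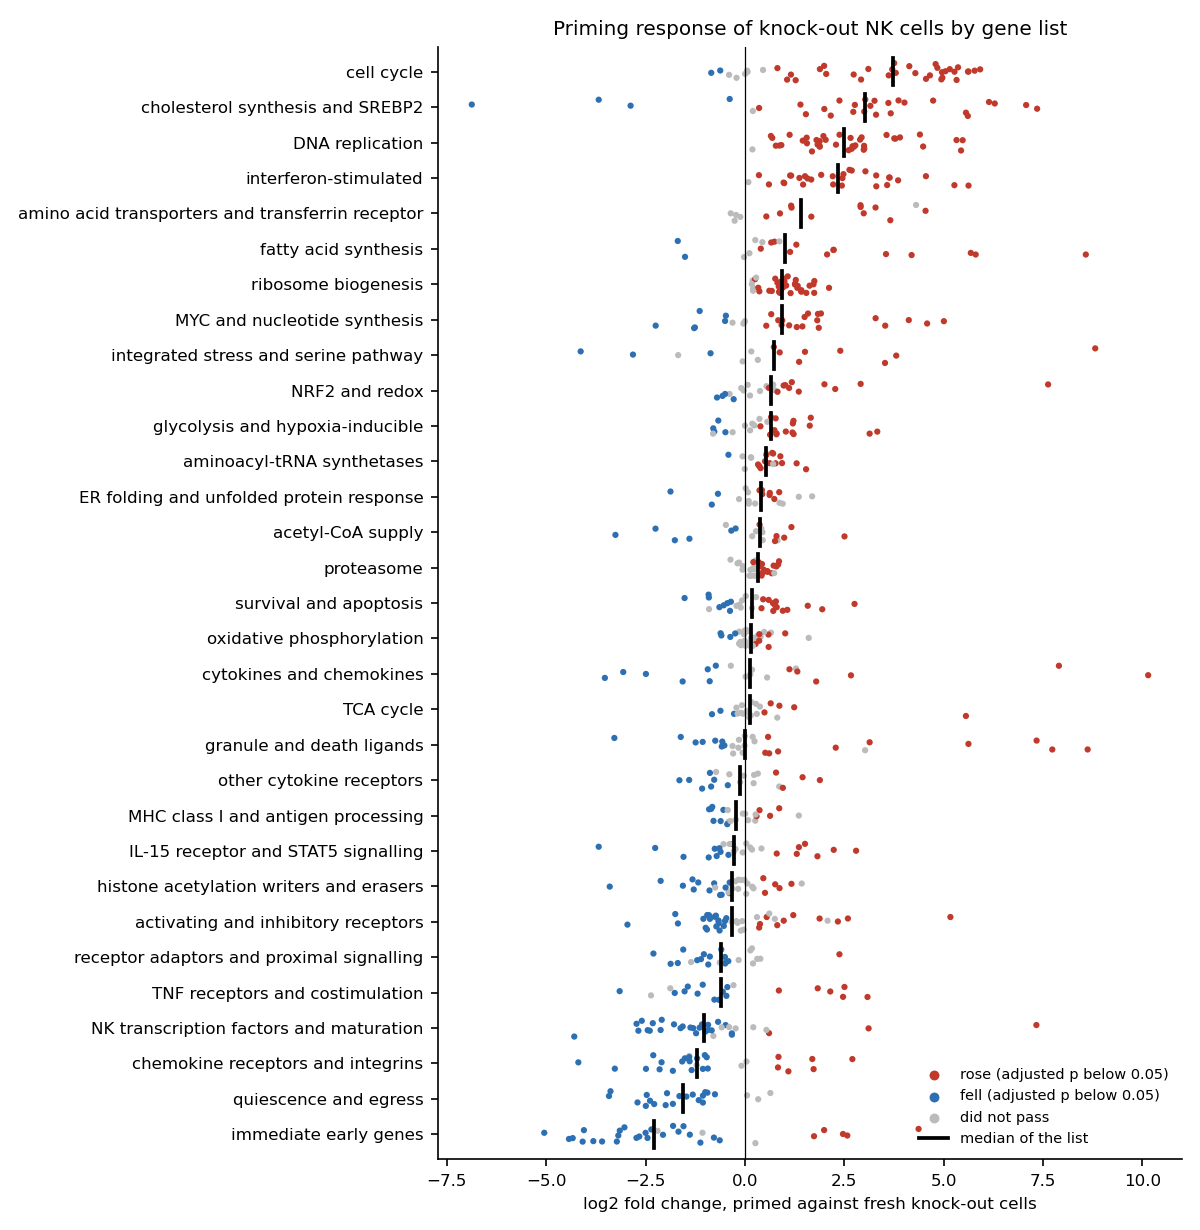
Log2 fold change of primed against fresh knock-out cells (horizontal axis) for each tested member of 31 gene lists (rows, ordered by median). Red points rose and blue points fell at an adjusted p below 0.05, grey points did not pass, and the black bar is the list's median. Cell cycle and cholesterol genes lie farthest to the right, with medians of 3.73 and 3.03, and immediate early genes farthest to the left, with a median of -2.28.

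Genes of division rose together. In the cell cycle list, 32 of 40 members rose and 2 fell, with a median log2 fold change of 3.73. Mki67, the proliferation marker, measured 8.89, 4.85 and 5.61 CPM in fresh and 77.5, 98.6 and 92.3 CPM in primed libraries (log2 fold change 3.80, SE 0.22, adjusted p = 1.82e-10). The groups were far apart, with no overlap. Top2a, the topoisomerase of mitotic chromosomes, rose from 42.3, 32.6 and 28.9 to 926, 908 and 777 CPM. E2f8 (5.33), the spindle checkpoint gene Bub1b (4.80) and the mitotic kinase gene Aurka (4.14) rose by more than 8-fold. The D-type cyclin genes, which couple growth signals to entry into the cycle, did not pass, and Ccnd2 was at 911, 1059 and 930.3 CPM fresh and 859, 1001 and 1051 CPM primed (log2 fold change 0.01, 95% interval -0.31 to 0.32). Ccnd3 had -0.21. Cdkn2d, a gene of an inhibitor of cyclin-dependent kinases 4 and 6, fell (-0.62).

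DNA replication genes rose almost without exception: 39 of 40, with a median of 2.50. Rrm2, the regulated subunit of ribonucleotide reductase, which makes the DNA precursors, measured 30.2, 18.4 and 22.7 CPM in fresh and 1069, 1064 and 962 CPM in primed libraries (5.44). Rrm1, the partner subunit, had 2.94, and Tyms, which makes thymidylate, 3.90. Mcm7, a subunit of the replicative helicase, rose from 54.9, 52.6 and 57.8 to 347, 363 and 396 CPM (2.74, adjusted p = 3.24e-12). Rfc2, a subunit of the clamp loader, was the single member that did not pass (0.19), although it did without primed replicate 1 (adjusted p = 0.0278).

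Promoters of this list often carry letters bound by E2F, the factor family of S-phase entry. The motif was searched with the letters TTGGCGC, the variant TTCCCGC and the variant TTCGCGC, on both strands, from 250 bases before to 50 after each RefSeq start site (GRCm38.p6). It was present in 23 of 40 promoters of the DNA replication list (57.5%, of 32 genes that matched the promoter table) and in 8.07% of all 32851 promoters. In 2 other lists that rose it was in 6 of 39 promoters (ribosome biogenesis, 15.4%) and in 5 of 27 (cholesterol synthesis, 18.5%). Promoters of 3 helicase subunit genes were chosen to show what the match looks like, because they hold it in the 250 upstream bases, with the motif in capitals and read along the gene's strand. They lie at chr8:75109259-75109508 (plus strand) for Mcm5, at chr1:128359706-128359955 (minus strand) for Mcm6 and at chr5:138171884-138172133 (minus strand) for Mcm7.
Mcm5: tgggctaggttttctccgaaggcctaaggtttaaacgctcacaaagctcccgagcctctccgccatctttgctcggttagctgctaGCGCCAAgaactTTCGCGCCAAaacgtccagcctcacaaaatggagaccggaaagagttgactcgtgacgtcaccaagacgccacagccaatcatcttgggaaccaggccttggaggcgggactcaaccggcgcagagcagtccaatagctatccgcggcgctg
Mcm6: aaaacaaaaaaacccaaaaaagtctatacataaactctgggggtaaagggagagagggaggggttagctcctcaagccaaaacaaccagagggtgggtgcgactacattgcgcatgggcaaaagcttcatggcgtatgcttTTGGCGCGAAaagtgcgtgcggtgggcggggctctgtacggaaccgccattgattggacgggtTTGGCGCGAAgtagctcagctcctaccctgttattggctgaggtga
Mcm7: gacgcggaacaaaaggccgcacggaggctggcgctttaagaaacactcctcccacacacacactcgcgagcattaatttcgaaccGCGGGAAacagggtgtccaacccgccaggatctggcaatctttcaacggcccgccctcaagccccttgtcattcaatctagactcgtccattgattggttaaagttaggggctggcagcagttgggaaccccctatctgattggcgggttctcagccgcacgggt
Mcm2, Mcm3 and Mcm10 had no match in the same bases, and another Mcm7 start site, not shown, had 1. Mcm5 and Mcm6 were named for their promoters rather than by the size of their change. Mcm5 held 3 such motifs, some of them overlapping, Mcm6 held 4 and Mcm7 1. A match is a description of the letters and not a measured binding site. Mcm5 had a log2 fold change of 2.71 and Mcm6 of 1.98 (SE 0.54). The Mcm6 libraries spread widely, at 108, 46.1 and 52.6 CPM fresh and 397, 261 and 155 CPM primed.

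Genes that hold lymphocytes at rest and let them leave tissue into blood fell: 19 of 22 members of the quiescence and egress list, none higher, median -1.56. Klf2, the transcription factor that maintains this programme, measured 310.3, 363 and 418 CPM in fresh and 39.6, 36.5 and 26.3 CPM in primed knock-out libraries (-3.42, SE 0.17, adjusted p = 4.09e-11). Fresh and primed libraries lay far apart, though no primed one was near 0. Its target S1pr1, a receptor for sphingosine-1-phosphate that guides exit from lymphoid organs, went from 84.8, 63.5 and 87.7 to 19.8, 7.32 and 9.53 CPM (-2.70). S1pr5, the form used by NK cells to leave bone marrow, had -2.47. Klf3 (-3.38), Klf6 (-2.28), the glucocorticoid-induced Tsc22d3 (-2.49) and Txnip, whose product restrains glucose uptake (-0.94), also fell. Ccr7 (0.64), Pik3ip1 (0.33) and Lef1 (0.05) did not pass.

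NK transcription factors and maturation genes were mostly lower, with 25 of 34 fallen, 3 risen and a median of -1.04. Tbx21, which encodes T-bet, was at 60.0, 58.7 and 57.1 CPM fresh and 17.8, 19.7 and 19.7 CPM primed (-1.62). Eomes, its relative and the second lineage factor, fell from 167, 162 and 173 to 82.9, 82.4 and 86.4 CPM (adjusted p = 3.16e-06). Tcf7, a factor of less mature cells, had -1.99. Markers of the mature CD11b-positive stage fell as well: Itgam, the gene of CD11b, from 499.7, 649 and 494 to 70.7, 101 and 76.2 CPM (-2.73), Klrg1 (-2.45) and Cx3cr1 (-2.68). Cd27, a marker of the earlier stage, fell too (-2.12). The 3 that rose were Id2, required for the lineage, from 2122, 2374 and 1739 to 3376, 3235 and 2889.6 CPM (0.61), Irf4 and Tox2. Irf4, at 0.408, 0.899 and 0.682 CPM fresh, was uneven when primed, at 1.47, 5.77 and 9.82 CPM (3.11). Tox2 had no read in the fresh knock-out libraries and 0.737, 0.976 and 0.866 CPM in the primed ones, at least 21.9-fold higher against the floor of 3 reads.

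Receptor genes moved in both directions, with 10 of 39 risen, 18 fallen and a median of -0.33. Over all genes 23% rose and 25.7% fell, so the risen share was near the background. Klrk1, the gene of the activating receptor NKG2D, was at 1453, 1364 and 1359 CPM in fresh and 1244, 1378 and 1359 CPM in primed libraries, which overlapped (log2 fold change -0.07, 95% interval -0.26 to 0.13). Ncr1, the gene of NKp46, fell from 1092, 1175 and 970.1 to 504, 618 and 557 CPM (-0.95), and Klrb1c, the gene of NK1.1, by a like amount (-0.95). Fcgr2b, the inhibitory Fc receptor gene, had -2.95. Checkpoint gene Havcr2, which encodes TIM-3, rose from 0.0453, 0.300 and 0.155 to 5.50, 5.01 and 7.55 CPM (5.17), a low level in every library. Klra5 rose as well (2.34), but genes of the Ly49 family share sequence, so reads may be divided among them. Klra7 (-0.18) and Klra10 (0.61) did not pass.

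Adaptors that carry receptor signals inward fell more uniformly: 14 of 23 lower and 1 higher, median -0.59. Tyrobp, which encodes DAP12, the adaptor of activating Ly49 receptors and of NKG2D, measured 1607, 1768 and 1944 CPM fresh and 285, 384 and 411 CPM primed (-2.30, SE 0.19, adjusted p = 1.89e-08). Hcst, the gene of DAP10, the other partner of NKG2D, went from 298, 297 and 331 to 120.1, 158 and 152 CPM (-1.10). Both adaptor genes of NKG2D thus fell in the libraries in which Klrk1 overlapped. Cd247, the zeta chain gene (-1.69), the kinase gene Fyn (-1.87) and Prkcq (-1.03) were lower too. Sh2d1b2, which encodes an adaptor of SLAM receptors, was the 1 that rose (2.38), and 4 rose without primed replicate 1. The kinase gene Zap70 did not pass (-0.63). It did without a filter on low counts (edgeR, adjusted p = 0.000469) and in a fit of the 6 libraries alone (0.0099).

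**Figure D2:**
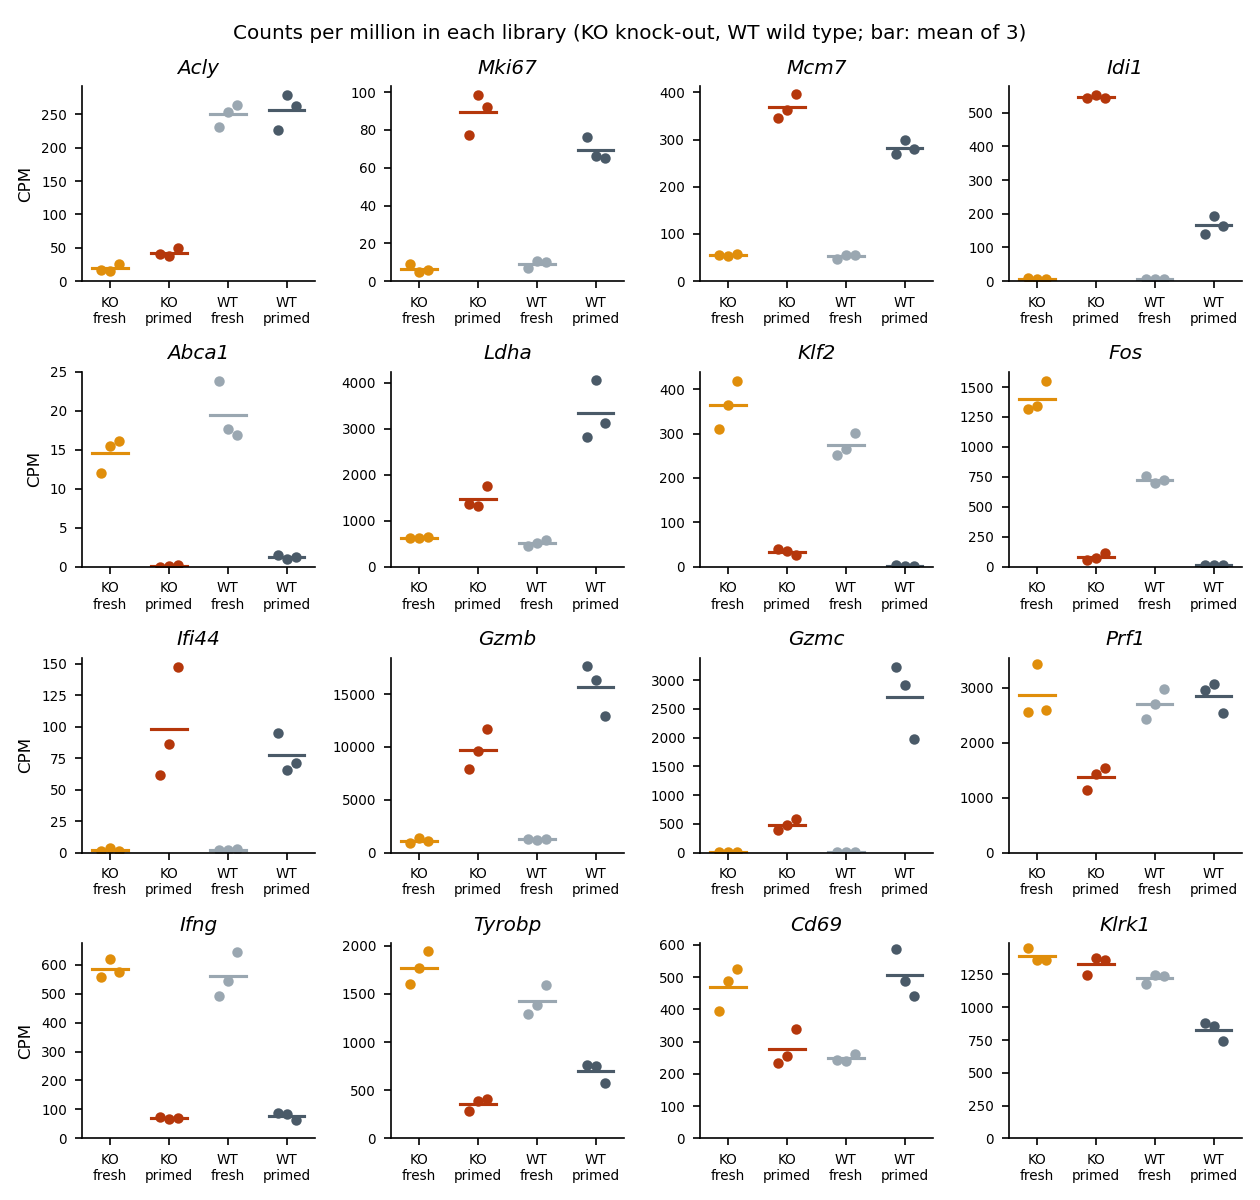
CPM (vertical axis, linear, from 0) of 16 genes in each library of fresh and primed knock-out (KO) and wild-type (WT) cells; points are libraries and bars are means of 3. In the knock-out, Mki67, Idi1 and Gzmb are far higher when primed, Klf2, Fos and Ifng far lower, and fresh and primed Klrk1 overlap.

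Granule genes divided, with 10 of 28 risen, 8 fallen and a median of 0.00, against 23% risen and 25.7% fallen over all genes. Gzmb, the gene of the caspase-cleaving granzyme B, measured 889, 1373 and 1048 CPM in fresh and 7891, 9579 and 11673 CPM in primed libraries (3.14, SE 0.23, adjusted p = 5.56e-09). It took 0.106% ± 0.023 of all reads when fresh and 0.943% ± 0.154 when primed (SD, n = 3). Gzmc, of the same cluster, rose from 3.36, 3.90 and 1.89 to 399, 475 and 576 CPM (7.34), although it shares sequence with Gzmd, Gzme, Gzmf and Gzmg and reads may be divided among them. Mcpt8, next to them, went from 2 reads over the fresh group to 745 over the primed group (ratio 479, exact 95% interval 132 to 3963, counting error only). Gzma, by contrast, was at 8595, 11366 and 9502 CPM fresh and 7389, 10387 and 8794 CPM primed, with overlap (-0.15, 95% interval -0.46 to 0.17), and Gzmm did not pass (0.24). Prf1, which encodes the pore-former perforin, fell from 2553, 3438 and 2593 to 1146, 1432 and 1532 CPM (-1.06, adjusted p = 0.000219). Cma1, a chymase gene, fell by 3.28 on the log2 scale. Of the death ligand genes, Tnfsf10, which encodes TRAIL, rose (2.29) and Fasl fell (-1.61).

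Cytokine and chemokine genes also went both ways, 6 of 19 higher and 7 lower (median 0.14), against 23% and 25.7% over all genes. Ifng, the gene of interferon gamma, measured 558, 621 and 576 CPM in fresh and 72.5, 67.1 and 70.8 CPM in primed libraries (-3.06, SE 0.15, adjusted p = 2.92e-11). Ccl5, a chemokine gene of resting NK cells, went from 19522, 20052 and 20834 to 3199, 4325 and 3233 CPM (-2.49), a share of all reads of 1.94% and then 0.349%. Ccl3 fell from 674, 966 and 842 to 267, 274 and 298 CPM (-1.57). Xcl1, which attracts cross-presenting dendritic cells, rose (1.12), as did Cxcl10 (1.79), the latter to 16.6, 18.4 and 44.7 CPM. Vegfa fell from a low level (-3.52), and Tnf (0.18) and Csf2 (0.56) did not pass.

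Chemokine receptors and integrins were mostly lower: 17 of 27 fallen, 6 risen, median -1.21. Itga4, the alpha-4 integrin gene, measured 359, 356 and 325 CPM fresh and 28.8, 41.7 and 37.1 CPM primed (-3.27). Itga2, the gene of CD49b, fell (-2.10), and Itga1, the gene of CD49a, which marks tissue-resident innate lymphocytes, rose from 7.39, 9.54 and 5.33 to 29.8, 26.2 and 15.8 CPM (1.70). The inflammatory chemokine receptor gene Ccr2 rose by less than 2-fold (0.84).

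The pathway of IL-15 itself showed 7 of 27 genes higher and 10 lower. Over all tested genes the shares were 23% and 25.7%. Il2ra, the alpha chain that IL-2 uses, rose from 7.71, 9.09 and 3.13 to 28.9, 29.3 and 34.5 CPM (2.24). Cish, a feedback inhibitor induced by STAT5, had 9.66, 15.3 and 14.4 CPM fresh and 35.2, 51.7 and 52.7 CPM primed (1.83, adjusted p = 0.000618). Socs3, another feedback gene, went the other way and fell by 3.68 on the log2 scale, and the kinase gene Pim3 fell by 2.26. Il2rb, the signalling beta chain gene, was at 3694, 3646 and 3604 and then 2477, 2767 and 2977 CPM (-0.41, adjusted p = 0.0296). That call was lost with replicates as blocks (adjusted p = 0.0559) and when any library but primed replicate 3 was left out (adjusted p = 0.0623 to 0.173). Jak1 fell (-1.54), Bcl2, a survival gene downstream of STAT5, rose (0.80), and Mcl1 fell (-0.64). Among 19 other cytokine receptor genes, 4 rose and 7 fell, against the same 23% and 25.7% over all genes. Il12rb1 (1.89) and Il12rb2 (0.78), both chains of the IL-12 receptor, were higher, while Il18r1 (-0.88) and Il18rap (-1.08), both chains of the IL-18 receptor, were lower. Ifngr1 fell as well (-1.40).

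In the list of TNF receptors and costimulatory genes, 6 of 20 rose and 11 fell (median -0.60). Shares over all genes were 23% and 25.7%. Tnfrsf9, the gene of 4-1BB, rose from 194, 212 and 165 to 598, 648 and 790.1 CPM (1.83), and the ligand genes Tnfsf8 (3.08) and Tnfsf4 (2.47) rose more. Cd69, an early activation marker that opposes S1PR1 at the cell surface, was lower after priming, at 394, 489 and 525 CPM fresh and 233, 255 and 339 CPM primed (-0.77, adjusted p = 0.00041). Tnfrsf18, the gene of GITR (-1.44), and Cd38 (-1.19) fell.

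Immediate early genes had the lowest median of the 31 lists: 24 of 32 lower, 5 higher, median -2.28. Fos, a component of the AP-1 factor, measured 1318, 1340.4 and 1551 CPM in fresh and 53.8, 76.8 and 118 CPM in primed libraries (-4.08, SE 0.25, adjusted p = 4.4e-10). The mRNA-decay factor gene Zfp36l2 (-3.15) and Rgs2 (-3.22) followed. The 5 that rose included the EGR genes and Fosl1: Egr1 went from 28.0, 39.4 and 39.1 to 126, 119 and 110.5 CPM (1.74), and Egr2 (2.47) and Egr3 (2.58) rose further. Fosl1, another AP-1 member, stayed at or below 2.31 CPM (4.37).

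Interferon-stimulated genes rose in 29 of 30 cases, none fell, and their median was 2.33. Ifi44 measured 1.41, 3.35 and 1.36 CPM in fresh and 61.9, 86.0 and 148 CPM in primed libraries (5.63, SE 0.43, adjusted p = 7.65e-09). Oasl2, which encodes a relative of the RNA-sensing oligoadenylate synthetases, went from 5.58, 6.34 and 6.70 to 74.0, 135 and 229 CPM (4.55). For both genes the third primed library was the highest and the first the lowest, and even the first lay above every fresh library. Ifi27l2a (5.27) and Rtp4 (3.30) rose too, and Gbp2 (0.09) did not pass.

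Cholesterol synthesis had the second highest median, 3.03, with 24 of 29 members risen and 4 fallen. The pathway builds sterols from acetyl-CoA and is switched on by the factor SREBP2 when membrane sterol is low. Hmgcs1, whose product joins acetoacetyl-CoA and acetyl-CoA at its entry, measured 31.7, 34.7 and 32.1 CPM in fresh and 848, 906 and 870.0 CPM in primed libraries (4.74, SE 0.15, adjusted p = 3.27e-13). Further along, Idi1 rose from 8.43, 6.49 and 6.11 to 543, 552 and 543 CPM (6.29), Fdps, which makes farnesyl diphosphate, had 5.61, and Cyp51, the lanosterol demethylase gene, 6.14. Replicates lay close together, and the gap between groups was many times their spread. Among the 4 that fell were genes whose products lower cell sterol. Abca1, a cholesterol exporter gene, fell from 12, 15.5 and 16.2 to 0, 0.0443 and 0.289 CPM (-6.87), Abcg1, a second exporter gene, from 540.4, 505 and 494 to 38.7, 42.7 and 39.0 CPM (-3.68), and Mylip, a ubiquitin ligase gene of sterol control, had -2.88. Insig2, a retention factor of the SREBP system, fell slightly (-0.38), a call lost without fresh replicate 2 (adjusted p = 0.0583), fresh replicate 3 (0.0941) or primed replicate 1 (0.0748).

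The letters TCACNCCA, a form of the sterol response element chosen after earlier results were seen, were in 3 of 27 promoters of this list (11.1%, of 21 genes that matched) and in 4.36% of all promoters, over the same window and on both strands. Another motif, the E-box CACGTG, was more frequent in the list, in 7 of the 27 (25.9%), and was in 7.15% of all promoters. Hmgcs1, whose rise is given above, is shown because its 250 upstream bases hold 1 match, in capitals, at chr13:119690101-119690350 (plus strand).
Hmgcs1: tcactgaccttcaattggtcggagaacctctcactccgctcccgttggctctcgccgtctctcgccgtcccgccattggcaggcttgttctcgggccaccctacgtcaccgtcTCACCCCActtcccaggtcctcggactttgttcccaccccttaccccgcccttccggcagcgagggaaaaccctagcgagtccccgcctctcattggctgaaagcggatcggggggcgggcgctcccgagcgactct
Idi1 and Insig1 had no match to TCACNCCA in their upstream bases, and nothing follows from that about the factor.

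Fatty acid synthesis genes rose in 13 of 20 cases and fell in 2 (median 1.00). Fasn, the synthase that uses acetyl-CoA by way of malonyl-CoA, measured 57.5, 60.2 and 61.9 CPM fresh and 206, 269 and 278 CPM primed (2.07, adjusted p = 2.91e-07). The desaturase genes Scd2 (2.23) and Fads1 (3.55) rose as well. Dgat1, which ends in triglyceride, fell (-1.69), as did Elovl7 (-1.51). Among 19 genes of acetyl-CoA supply, 6 rose and 6 fell, against 23% and 25.7% over all genes. Acss2, the acetate route, fell from 45.4, 34.4 and 32.6 to 17.8, 16.5 and 8.52 CPM (-1.40, adjusted p = 0.00653), and its mitochondrial relative Acss1 had -1.76. Pdp2, the phosphatase that activates pyruvate dehydrogenase, rose from 45.9, 44.3 and 40.0 to 263, 247 and 229 CPM (2.51), and Pdk2, a kinase that inhibits it, fell (-3.26). Slc25a1, the exporter of mitochondrial citrate, did not pass (0.44). It did without primed replicate 1 (edgeR, adjusted p = 0.0232) and with limma voom on all libraries (adjusted p = 0.00809). Without primed replicate 2, 3 genes of acetyl-CoA supply rose. With limma voom 10 did, and in a fit of the 6 libraries alone 9 did.

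Glycolysis and hypoxia-inducible genes rose in 16 of 28 cases and fell in 4, with a median of 0.65. Ldha, which makes lactate, measured 617, 636 and 642 CPM in fresh and 1360.1, 1320.3 and 1752 CPM in primed libraries (1.23, SE 0.17, adjusted p = 1.23e-05). Hk2, the inducible hexokinase gene, rose from 1.45, 1.75 and 2.48 to 19.8, 18 and 20.3 CPM (3.33), Aldoc from 1.59, 3.25 and 1.71 to 18.4, 19.0 and 19.3 CPM (3.14) and Pgk1 had 1.20. Slc16a3, the lactate exporter gene, rose from 3.76, 5.85 and 4.06 to 11.5, 13.5 and 17.2 CPM (1.63). Glucose transporter genes did not pass: Slc2a1 was at 81.8, 86.5 and 86.2 and then 61.7, 57.9 and 85.8 CPM (-0.31, 95% interval -0.66 to 0.05), although it passed without primed replicate 3 (adjusted p = 0.0334), and Slc2a3 at 165, 179 and 143 and then 156, 176 and 156 CPM. Pfkp, a phosphofructokinase gene, fell from 434, 459.9 and 427 to 239, 237 and 285 CPM (-0.80), and Pfkfb3, which makes its activator, had -0.77. Without primed replicate 1, 2 genes of the list fell.

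Mitochondrial lists moved little. Against 23% risen and 25.7% fallen over all genes, 5 of 22 TCA cycle genes rose and 3 fell (median 0.13). In oxidative phosphorylation 7 of 36 rose and 4 fell (median 0.15). Both counts moved without the library that stood apart and also with the fit. Without primed replicate 1, 9 TCA cycle genes rose and 2 fell, and 13 oxidative phosphorylation genes rose and 1 fell. With that library kept, limma voom gave 9 and 4 for the TCA cycle and 15 and 4 for oxidative phosphorylation. A fit of the 6 libraries alone gave 7 and 2, and 13 and 3. Fh1, the fumarase gene, rose (0.87), and Idh3b, a subunit of isocitrate dehydrogenase, fell from 107, 103 and 115 to 62.0, 67.9 and 81.8 CPM (-0.61). Pcx, which refills the cycle with oxaloacetate from pyruvate, rose from 0.0453, 0.25 and 0.155 to 9.59, 6.87 and 5.34 CPM (5.56). Cycs, the cytochrome c gene, rose (1.01), and Cox4i1, of complex IV, fell from 924, 889 and 1007 to 517, 643 and 712 CPM (-0.59).

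**Figure D3:**
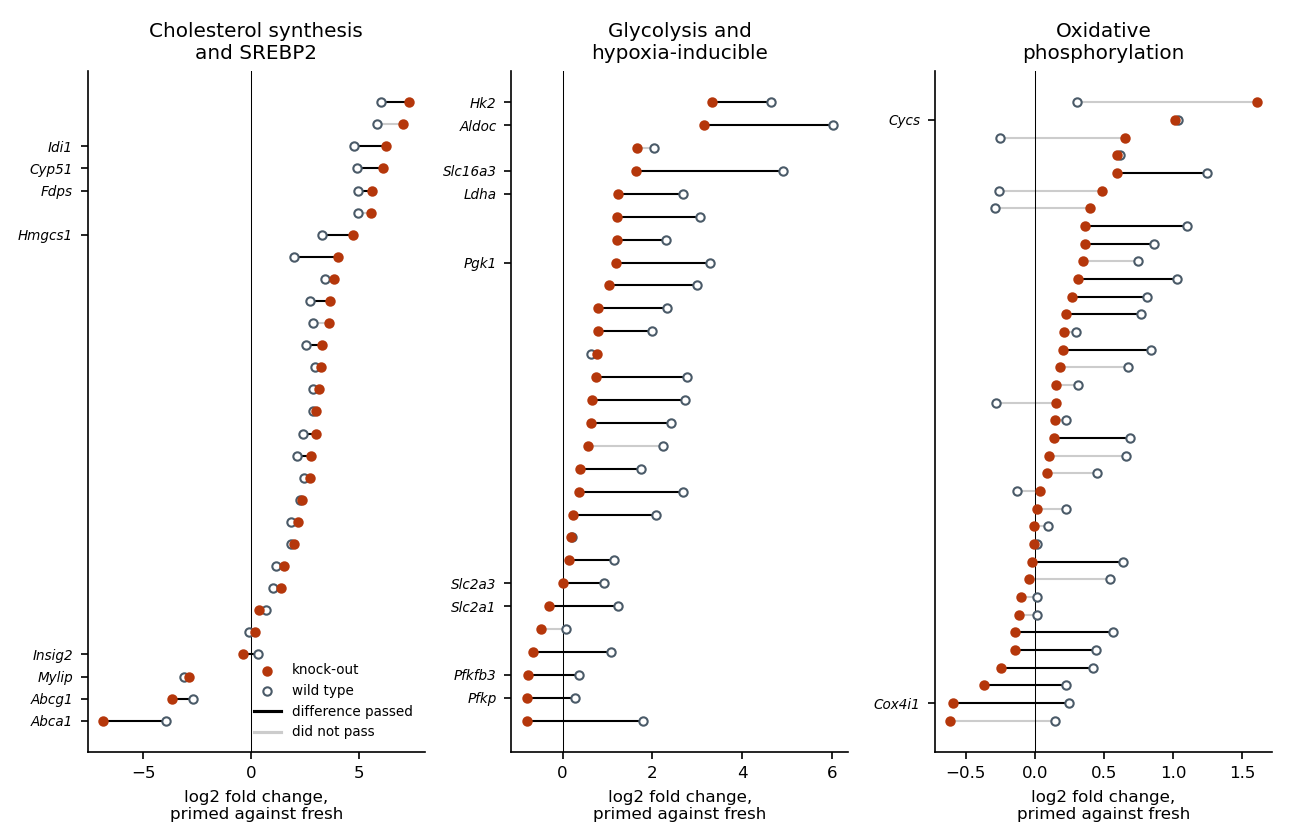
Log2 fold change of primed against fresh cells (horizontal axis) for each tested member of 3 lists, with the genes described in the text labelled; filled points are knock-out, open points wild type, and a black line marks a difference between genotypes past an adjusted p of 0.05. Among cholesterol genes, 10 knock-out points lie to the right of their wild-type point and 3 to the left with a black line, and 23 of 28 glycolysis genes lie to the left.

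Genes of growth rose. In the list of MYC and nucleotide synthesis, 19 of 29 rose and 6 fell (median 0.94). Myc measured 97.3, 93.4 and 107 CPM fresh and 245, 225 and 267 CPM primed (1.31, SE 0.22, adjusted p = 8.76e-05). Those that fell include antagonists of MYC: Mxd1 went from 116, 121 and 136 to 25.7, 26.8 and 26.2 CPM (-2.24), and Mxd4 (-1.26) and Mnt (-1.14) were lower, while Mxd3 rose (5.01). The folate enzyme genes Mthfd2 (3.53) and Shmt1 (4.12) and the purine synthesis gene Pfas (1.91) rose. Ribosome biogenesis genes rose in 35 of 40 cases with none lower (median 0.94). Nop56, a core protein of the small nucleolar particles that modify ribosomal RNA, rose from 110.5, 104 and 98.7 to 436, 442 and 479.8 CPM (2.12), and the nucleolar genes Npm1 (1.63) and Ncl (1.15) followed.

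Supply genes moved with them. Amino acid transporters and the transferrin receptor rose in 11 of 16 cases, none fell, and the median was 1.42 (1.27 with 1 gene without fresh reads at its bound). Tfrc, which brings in iron, measured 7.75, 7.84 and 6.91 CPM fresh and 109, 92.4 and 82.5 CPM primed (3.66). Slc7a5, the carrier of large neutral amino acids, rose from 2.27, 3.60 and 3.44 to 16.8, 24.0 and 33.2 CPM (2.99), but Slc3a2, its heavy chain, did not pass (-0.36). Of 20 aminoacyl-tRNA synthetase genes 13 rose and 1 fell (median 0.54), led by Iars (1.54) and Cars (1.30). In the integrated stress and serine list 8 of 15 rose and 3 fell. Serine synthesis gene Psat1 rose from 37.0, 33.4 and 36.0 to 171, 179 and 212 CPM (2.40) and Phgdh had 1.36, while Ddit3, which encodes the stress factor CHOP, fell (-0.86). Atf4, the factor at the centre of that response, did not pass (0.16). It did without primed replicate 1 (edgeR, adjusted p = 0.0309) and with limma voom on all libraries (adjusted p = 0.0184).

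Protein handling changed less. For ER folding and the unfolded protein response, 7 of 20 rose and 3 fell (median 0.40), against 23% and 25.7% over all genes. Hspa5, which encodes the chaperone BiP, rose from 1147, 1193 and 1205 to 1515, 1567 and 1717 CPM (0.44), and Dnajb9 fell (-1.87). Proteasome subunits rose in 16 of 31 cases, none fell, and the median was 0.34; without primed replicate 1 the count was 22. Psma4 had 0.86. In the NRF2 and redox list 11 of 24 rose and 4 fell (median 0.66): Prdx1, a peroxiredoxin gene, went from 383, 404 and 383 to 1401, 1589.6 and 1694 CPM (2.00), and Sod1 (1.36) and Txn1 (1.18) rose, while Gpx4, which repairs lipid peroxides, fell from 347, 323 and 376 to 203, 206 and 235 CPM (-0.70). Of other NRF2 targets, Hmox1 (-0.39) and Txnrd1 (-0.09) did not pass.

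The survival and apoptosis list was mixed, with 13 of 29 higher and 8 lower (4 lower without fresh replicate 2 or primed replicate 1). Over all genes 23% rose and 25.7% fell. Fas, a death receptor gene, fell (-1.52). Against the same shares, histone acetylation writers and erasers leaned lower, with 13 of 32 fallen and 5 risen (median -0.33). Ep300, a histone acetyltransferase gene, went from 27.0, 30.4 and 23.9 to 7.91, 12.2 and 13.1 CPM (-1.29) and its relative Crebbp had -0.77. Hat1, which acetylates newly made histone H4, rose (1.17), and Sirt5, a mitochondrial deacylase gene, fell (-2.12). Among 21 genes of MHC class I and antigen processing 4 rose and 7 fell (median -0.23), against 23% and 25.7% over all genes. Only 2 rose without fresh replicate 1 or primed replicate 3, and 4 fell without fresh replicate 3. B2m, the light chain gene, was at 5641, 6195 and 5522 and then 4986, 6217 and 6253 CPM (0.01, 95% interval -0.25 to 0.27), and Tapbpl fell (-0.85).

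To ask where this response differs from that of wild-type cells, the difference of both responses was tested in the same fit. Wild-type cells gave 7987 calls (53.7%), with 4509 of at least 2-fold (30.3%). A call in both genotypes with the same direction was made for 5163 genes, 71.3% of the knock-out calls and 64.6% of the wild-type calls. The difference itself passed for 1559 genes (10.5%), of which 718 (4.83% of all tested) were at least 2-fold. Of the 1559, 606 (4.08%) had the higher log2 fold change in the knock-out and 953 (6.41%) the lower one. Among these 1559, the response was smaller in the knock-out with the same sign for 596, larger for 295 and of opposite sign for 668, and 130 of the last were called in opposite directions. Calls of the difference numbered 972 with replicates as blocks. Leaving out 1 library gave 2453 calls without primed wild-type replicate 3, which lay apart from the other 2, and 842 without primed wild-type replicate 2. It gave 870.0, 911, 940.0 and 1003 calls without fresh knock-out replicate 3, fresh wild-type replicate 2, primed wild-type replicate 1 and fresh knock-out replicate 1. Differences counted per list below come from the main fit alone, and the 4.08% and 6.41% are their background. Erythroid and platelet markers, which summed to 27.8 to 31.2 CPM in fresh knock-out libraries, summed to 124 to 221 CPM in fresh and 0.0489 to 0.322 CPM in primed wild-type ones, and their part in the differences was not tested.

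**Figure D4:**
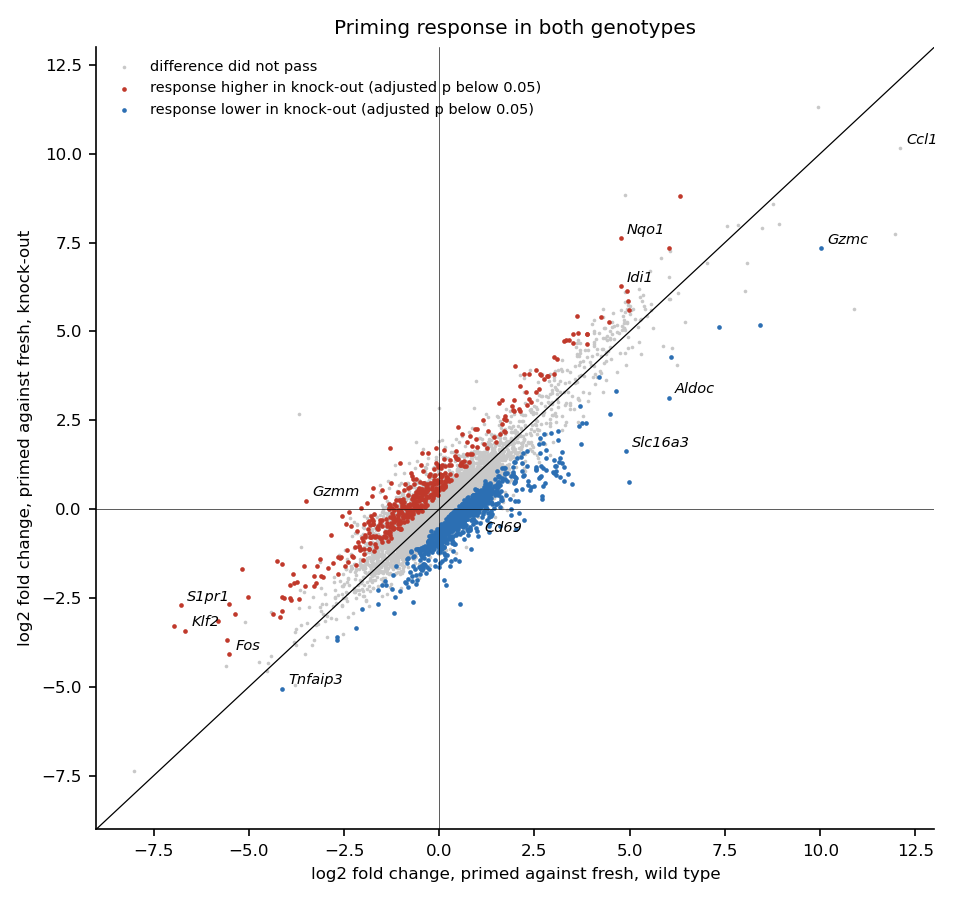
Log2 fold change of primed against fresh cells in wild type (horizontal axis) and knock-out (vertical axis) for the 8276 genes whose mean log2 CPM reached 3; the diagonal marks equal responses. Coloured points are genes whose difference passed an adjusted p of 0.05. Klf2, S1pr1 and Gzmm lie above the diagonal and Slc16a3, Aldoc and Gzmc below it.

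Several egress genes fell less in the knock-out. Klf2 measured 252, 266 and 301 CPM in fresh and 2.97, 2.67 and 2.43 CPM in primed wild-type libraries. Its log2 fold change was -3.42 in the knock-out and -6.67 in wild type, a difference of 3.25 (SE 0.24, adjusted p = 2.73e-06). No primed wild-type library reached the level of any primed knock-out one. S1pr1, at 0.944, 0.764 and 0.123 CPM in primed wild-type libraries, fell further there as well. For S1pr1 the difference was 4.09 and for S1pr5 2.55. In the quiescence and egress list 6 of 22 members had a higher response in the knock-out and none a lower one. Cx3cr1 (2.83) shared this direction. So did 2 protease genes of granules: Cma1 (3.68) and Gzmm, which did not pass in the knock-out and fell in wild type (-3.51, difference 3.75, adjusted p = 1.31e-05).

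In the cholesterol list 10 of 29 members rose more in the knock-out and 3 had a lower response. Hmgcs1 measured 33.5, 37.0 and 30.8 CPM in fresh and 249.8, 393 and 335 CPM in primed wild-type libraries, the latter all below the primed knock-out ones. Hmgcs1 differed by 1.46 (SE 0.19, adjusted p = 0.000233), Idi1 by 1.52 and Cyp51 by 1.21. The 3 lower ones, named after their values were seen, were the exporter genes Abcg1 (-1.003) and Abca1 and the retention factor gene Insig2. The difference for Abca1 (-2.91, adjusted p = 0.0235) was lost with replicates as blocks (adjusted p = 0.0521) and when 1 of 6 libraries was left out (0.0506 to 0.078). That for Insig2 (-0.70, adjusted p = 0.0126) was lost without fresh knock-out replicate 3 (0.0526) or primed wild-type replicate 2 (0.0598). In the DNA replication list 6 of 40 rose more in the knock-out and none less. Acly itself did not pass in wild type (0.03), and the difference of 1.14 passed (adjusted p = 0.0131).

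Most glycolysis genes responded less in the knock-out: 23 of 28 members had a lower response than in wild type, where 24 rose, and none a higher one. Slc16a3 measured 3.33, 3.71 and 5.76 CPM in fresh and 95.8, 135 and 151 CPM in primed wild-type libraries. All primed wild-type values lay above the primed knock-out ones. Slc16a3 had 1.63 in the knock-out and 4.90 in wild type (difference -3.27, SE 0.38, adjusted p = 0.000105). Aldoc differed by -2.88, Pgk1 by -2.08 and Ldha by -1.46. In oxidative phosphorylation 14 of 36, in the proteasome 9 of 31 and in the TCA cycle 4 of 22 had the lower response, and none the higher. Over all genes the shares were 6.41% lower and 4.08% higher. These counts come from the main fit alone.

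Several effector and costimulatory genes had the lower response in the knock-out. Prf1 measured 2425, 2708 and 2975 CPM in fresh and 2953, 3069.6 and 2541 CPM in primed wild-type libraries, which overlapped. It did not pass there (0.08) and fell in the knock-out, a difference of -1.14 (SE 0.27, adjusted p = 0.0131). Gzmc rose in both and differed by -2.68, whereas for Gzmb the difference of -0.51 did not pass (adjusted p = 0.299). Cd69 rose from 242, 239.6 and 262 to 587, 488 and 440.2 CPM in wild type (1.03) and fell in the knock-out (difference -1.80, adjusted p = 0.00013). Tnfrsf9 (-1.90), Cd38 (-1.56) and Tnfrsf18 (-1.33) were among 7 of 20 genes of the TNF receptor and costimulation list with the lower response, against none with the higher. Tyrobp fell in both and differed by -1.27. For Ifng (difference -0.21, SE 0.20) and Ccl5 (-0.05, SE 0.21), both of which fell strongly in the knock-out, the difference did not pass. Among 30 interferon-stimulated genes 1 had a difference that passed, the tetherin gene Bst2 (-1.14), named after its values were seen. That call was lost with replicates as blocks (adjusted p = 0.0698) and when 1 of 10 of the 12 libraries was left out (0.0671 to 0.146).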

How the data were processed

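Bulk RNA-seq was made from total RNA of sorted splenic NK cells (3 libraries in each of 6 groups, by genotype and condition). The authors deposited 1 table of expected counts per gene, 30% of whose nonzero values are not whole. The build mm10 and the tools DRAGEN, bcl2fastq and edgeR are listed, without versions or roles, per the submitters' processing notes. Strand and molecular identifiers were not given in the sources used here, so reads of overlapping or antisense genes may be mixed and duplicates counted.

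Expected counts were rounded, since the planned test takes whole counts, and fitted over all 18 libraries with 1 mean per group (edgeR 4.0.16, R 4.3.3: filterByExpr, TMM factors, glmQLFit and glmQLFTest, Benjamini-Hochberg adjustment over 14864 genes, threshold 0.05). Fitting all groups shares 1 estimate of the spread. CPM use TMM library sizes (marker sums, raw totals) and are relative to the total, so a change in RNA per cell is not seen. DESeq2 1.42.0, limma 3.58.1 voom, other scalings and filters, and leaving out each library were alternatives. The code was tested on simulated counts.

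The comparison, the gene lists and the naming rules were chosen with earlier results of these data known. Named genes were the 10 largest rises and falls with no overlap and a mean log2 CPM no lower than 3 (leaving out other-cell markers, unnamed, sex-linked and antigen receptor genes), up to 4 risen and 4 fallen members of smallest p per list, the 8 highest and 8 lowest differences, and a set of NK-cell genes. Not all of them are printed, and a few results are not reported here. Where a group had no read, folds are bounds against 3 reads over the group.

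Fresh and primed knock-out libraries of the same number deviated together from their group means (Pearson's r across genes 0.236, 0.299 and 0.174), above the 0.1 taken as pairing. Wild-type ones did not (0.336, 0.092 and -0.045). Nor did the NKG2D-stimulated knock-out libraries of the series. Their r was -0.320, 0.247 and -0.066 with fresh ones of the same number, and -0.316, 0.242 and -0.228 with primed ones. The replicate block nevertheless joined libraries of the same number across all conditions within a genotype. The main fit used no pairing. Reads per knock-out library ranged from 14772350 to 33808849, and intervals of read ratios cover counting error only.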

Additional observations from a re-analysis of the deposited data

Results flagged for a closer look

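For 59 printed genes the knock-out and wild-type responses to priming differed by the test of the difference itself (edgeR, adjusted p below 0.05 over all genes). One of them, Tox2 (adjusted p = 0.0121), is given no value because both wild-type groups held at most 3 reads of it, and its call was lost with replicates as blocks (adjusted p = 0.0534) and without fresh wild-type replicate 2 (0.9999). For the other 58, each value here is the knock-out response minus the wild-type response on the log2 scale. Of the printed genes of glycolysis, the lower response in the knock-out was seen for Slc16a3 (-3.27), Aldoc (-2.88), Pgk1 (-2.08), Slc2a1 (-1.55), Ldha (-1.46), Hk2 (-1.31), Pfkfb3 (-1.14), Pfkp (-1.08) and Slc2a3 (-0.93). Mitochondrial, redox and protein turnover genes with the lower response were Sirt5 (-1.30), Idh3b (-0.95), Cox4i1 (-0.84), Gpx4 (-0.79), Txn1 (-0.76) and Psma4 (-0.59). Immune genes with the lower response were Havcr2 (-3.25), Gzmc (-2.68), Tnfrsf9 (-1.90), Cd69 (-1.80), Cd38 (-1.56), Cd27 (-1.50), Tnfrsf18 (-1.33), Klra5 (-1.32), Tyrobp (-1.27), Bst2 (-1.14), Prf1 (-1.14) and Tnfaip3 (-0.93). The marker genes H2-Ab1 (-3.21) and Cd3g (-1.96) also had the lower response. Sterol genes with the lower response were Abca1 (-2.91), Abcg1 (-1.003) and Insig2 (-0.70). The higher response in the knock-out was seen for the lipid and acetyl-CoA genes Fdps (0.64), Acly (1.14), Cyp51 (1.21), Fasn (1.26), Elovl7 (1.27), Pdp2 (1.36), Hmgcs1 (1.46), Idi1 (1.52) and Acss2 (1.74). It was also seen for the growth and stress genes Nop56 (0.52), Rrm1 (0.62), Sod1 (0.71), Top2a (0.77), Dnajb9 (1.42), Asns (2.48) and Nqo1 (2.87). Immune and regulatory genes with the higher response were Klrk1 (0.49), Fos (1.44), Socs3 (1.89), Fcgr2b (2.41), S1pr5 (2.55), Cx3cr1 (2.83), Klf2 (3.25), Cma1 (3.68), Gzmm (3.75) and S1pr1 (4.09).

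With replicates as blocks the difference was lost for 12 of them, Tox2 included and the others with the adjusted p in parentheses: Abca1 (0.052), Acss2 (0.052), Asns (0.0533), Bst2 (0.0698), Elovl7 (0.0511), Fdps (0.0805), Hk2 (0.0534), Klrk1 (0.0706), Nop56 (0.0516), Nqo1 (0.054) and Sirt5 (0.0847). For 17 genes, Tox2 included, it was lost when at least 1 library was left out. With the highest adjusted p reached in parentheses, the other 16 were Abca1 (0.078), Acss2 (0.117), Asns (0.0813), Bst2 (0.146), Dnajb9 (0.0626), Fdps (0.0859), Havcr2 (0.0891), Hk2 (0.119), Insig2 (0.0598), Klrk1 (0.068), Nop56 (0.0737), Nqo1 (0.284), Psma4 (0.0564), Sirt5 (0.103), Tnfaip3 (0.11) and Top2a (0.0601).

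Groups of 3 libraries are too small for a test of single outlying libraries.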

How the results depend on the processing

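The knock-out response was called for 7238 genes and for 6313 to 8514 under other tools, scalings, filters and fits, apart from a test against a 2-fold change (1921; wild type 2337) and a restriction to a mean log2 CPM of at least 3 (5022 of fewer genes tested). Leaving out 1 library gave 6077 to 6868 calls. The difference between genotypes was less stable: 1559 calls became 4157 with limma voom, 972 with the replicate block, 46 against a 2-fold change, and 842 to 2453 when 1 library was left out. The cause was not tested beyond what these settings change by construction. With DESeq2 it had 2194 calls and without a filter 2139. Of 176 printed genes called in the knock-out, 173 kept the call in every setting but the 2-fold test, and of 59 printed differences 41 did. None reversed. The replicate block changed the knock-out call of 1 printed gene, Il2rb. Of the counts per list of the knock-out response, 85 of 930 moved by over 1.5 times. Counts per list of the difference were not repeated under the alternatives. Depth limits genes with few reads in a group, such as Abca1 after priming, at 0 to 0.289 CPM.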
